A study of Homo sapiens with 12 samples.

Results

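The miR-506 to miR-514 cluster is a group of microRNA hairpins on the long arm of the human X chromosome, and 3 of its mature microRNAs are described here: hsa-miR-508-3p, hsa-miR-509-3-5p and hsa-miR-514a-3p, named without the species prefix from here on. They were taken by name from the raw count table, with blanks read as 0. A mature name listed under several hairpins was represented by the one whose counts summed highest across the 12 libraries. They are 3 of 1906 annotated mature names in the table, which holds 13 annotated arms from hairpins of the cluster. The libraries came from cultures of the gastric cancer lines HGC-27 and AGS, both established lines of human origin grown with serum. Each line received 5 µM SAHA (vorinostat, an inhibitor of histone deacetylases) or its solvent DMSO for 24 h, with 3 libraries in each of the 4 groups. Each line is a single established line, and the replicates carry numbers only. Nothing says that they were separate cultures, so p-values measure the spread between these libraries, which may be technical.

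MicroRNAs are short RNAs cut from hairpin precursors, and bases 2 to 8, the seed, do most of the pairing with target messenger RNAs. The hairpins of the cluster arose by duplication, changed quickly in primates, and are known for their high levels in testis; some are also known from melanoma. Histone deacetylase inhibitors raise histone acetylation and can switch on genes that a tissue keeps silent, genes normally restricted to the germ line among them.

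The mature sequences of the 3 microRNAs and of 2 relatives are given below to show which share a seed. They are RefSeq sequences on GRCh38.p14, written 5′ to 3′, with the seed in capitals.

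miR-508-3p: uGAUUGUAgccuuuuggaguaga

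miR-509-3-5p: uACUGCAGacguggcaaucaug

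miR-509-5p: uACUGCAGacaguggcaauca

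miR-514a-3p: aUUGACACuucugugaguaga

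miR-514b-3p: aUUGACACcucugugagugga

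The 3 microRNAs have 3 different seeds. miR-509-3-5p shares its seed with miR-509-5p, the same arm of the hairpins mir-509-1 and mir-509-2, and aligns with it over 20 identical bases with 0 mismatches and 3 gap bases. miR-514a-3p shares its seed with miR-514b-3p, whose entry was blank in all 12 libraries. The search for shared seeds did not cover every chromosome. Among the RefSeq names searched, miR-4418 was the only other with the seed of miR-509-3-5p and was blank as well. No other name searched had the seed of miR-508-3p. Near-identical relatives can share reads in ways that the counting rule, which is not given in the sources used here, would decide, so the split between miR-509-3-5p and miR-509-5p is uncertain.

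The hairpins show where each arm is cut. The mature microRNA is in capitals, and the sequences are from the minus strand of chromosome X.

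mir-508, chrX:147236913-147237027: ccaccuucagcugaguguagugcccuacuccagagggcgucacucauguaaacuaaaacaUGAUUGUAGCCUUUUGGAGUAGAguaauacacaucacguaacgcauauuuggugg

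mir-509-3, chrX:147259652-147259726: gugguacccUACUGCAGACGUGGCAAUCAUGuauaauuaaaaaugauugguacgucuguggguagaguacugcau

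mir-514a-2, chrX:147281943-147282030: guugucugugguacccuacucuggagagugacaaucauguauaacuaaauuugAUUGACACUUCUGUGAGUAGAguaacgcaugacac

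miR-514a-3p is encoded 3 times. The hairpin mir-514a-3 at chrX:147284641-147284728 is identical to mir-514a-2, and mir-514a-1 at chrX:147279247-147279344 aligns with it over 87 identical bases with 1 mismatch. The table lists the same counts for all 3 hairpins, so a count of miR-514a-3p cannot be assigned to a copy. The 15 hairpins of the cluster span 95 kb, all on the minus strand. In GENCODE 29, mir-508 and mir-509-3 lie in introns of AL589669.1, a long intergenic noncoding RNA annotated on the opposite strand, and the mir-514a hairpins overlap no other annotated gene. The nearest protein-coding gene to each is CXorf51A, at 422.2 kb from mir-508 and 464.5 kb from mir-514a-1.

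Summed over all entries of the table, the libraries listed 2665109 to 6525388 counts. That sum counts reads listed under several hairpins more than once. Annotated microRNAs, taken at 1 hairpin per mature name, had 2284193 to 5502513 counts. Levels are annotated counts scaled by TMM to CPM, in which 1 count was worth 0.193 to 0.468 CPM. The smallest count listed anywhere was 2, so a blank may stand for 1 count. A count of 0 allows a level of up to 3 counts, or 0.578 to 1.40 CPM according to the library. These floors cover counting error only, and reads without molecular identifiers are not independent molecules. Epithelial markers were present: all 9 of the list in the table had counts in every library, led by miR-192-5p, which together came to 1573 to 2792 CPM in HGC-27 with DMSO and 2923 to 8068 CPM in AGS with DMSO. Libraries HGC-27 SAHA 2, HGC-27 DMSO 1 and AGS DMSO 2 stood apart from their groups in marker lists of other cell types, given beside the results they touch.

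All 3 microRNAs followed the same order of mean levels: no counts in HGC-27 with DMSO, a few counts in HGC-27 with SAHA, more in AGS with DMSO, and most in AGS with SAHA. AGS libraries exceeded HGC-27 libraries for each microRNA whatever the treatment. In these bulk libraries, a change in the number of cells that express a microRNA and a change in its amount per cell cannot be told apart. The plot of levels by library shows all 12 values of each microRNA.

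**Figure D1:**
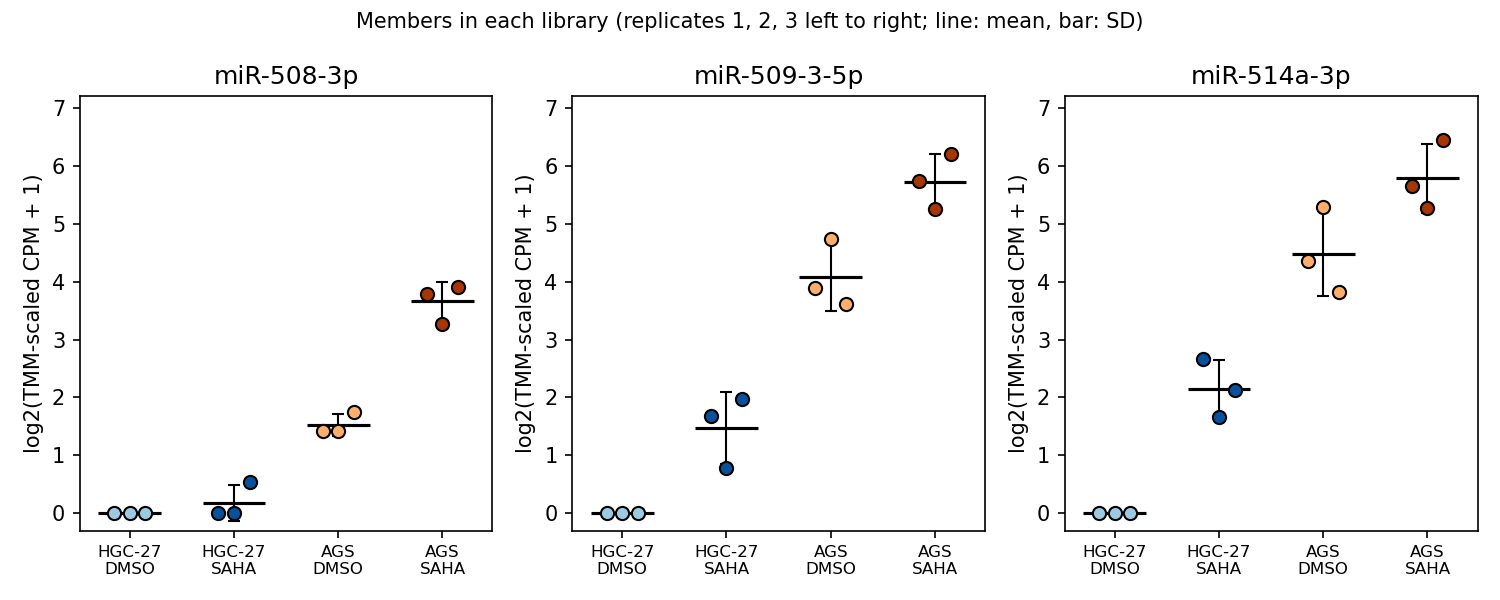
Levels of miR-508-3p, miR-509-3-5p and miR-514a-3p as log2(TMM-scaled CPM + 1) in each of the 12 libraries (points), with the mean (line) and SD (bar) of the 3 libraries of a group. The HGC-27 DMSO libraries are all at 0, the AGS SAHA means are the highest, and the AGS groups overlap for miR-514a-3p only.

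In AGS, SAHA raised miR-508-3p and miR-509-3-5p, and miR-514a-3p missed the threshold. With 2 of the 3 microRNAs called higher (edgeR's quasi-likelihood test, adjusted p under 0.05), this compares with 15.0% of the 608 microRNAs tested that were called higher in this line. Their median log2 fold change was 1.67, that of miR-509-3-5p, against 0.08 over all tested. All 3 passed the filter on low counts: miR-508-3p on the AGS SAHA libraries alone, and the other two on the AGS libraries of both treatments. A microRNA that passed only where it is high had to differ, so the count for miR-508-3p with SAHA, and for all 3 between the lines, is in part set by the filter.

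miR-508-3p had 6, 5 and 5 counts in the 3 AGS DMSO libraries and 32, 27 and 43 counts in the SAHA libraries, in the order of the replicate numbers. Every SAHA library was above every DMSO library, as also for miR-509-3-5p. Such a separation was found for 2 of the 3 microRNAs and for 22.7% of those tested. The mean level went from 1.89 ± 0.388 to 11.8 ± 2.80 CPM (SD, n = 3), 6.26-fold, with a log2 fold change of 2.64 (SE 0.54) and an edgeR adjusted p of 0.00807. The ratio of the summed counts had an exact 95% interval of 3.77 to 11.7, which covers counting error only. Without AGS DMSO 1 the call was lost (adjusted p = 0.0604).

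miR-509-3-5p had 50, 77 and 24 counts with DMSO and 130, 116 and 223 counts with SAHA in AGS, or 13.9, 25.6 and 11.2 CPM against 52.2, 37.3 and 72.6 CPM. The groups did not overlap, and the highest DMSO library was AGS DMSO 2. The mean rose from 16.9 ± 7.66 to 54.0 ± 17.7 CPM (SD, n = 3), 3.19-fold, with a log2 fold change of 1.67 (SE 0.45) and an edgeR adjusted p of 0.0255. This call was lost in 4 of the 6 fits that left out 1 library of the line: without AGS SAHA 1 (adjusted p = 0.0807), AGS SAHA 3 (0.0947), AGS DMSO 1 (0.109) or AGS DMSO 3 (0.0874).

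miR-514a-3p had 70, 114 and 28 counts with DMSO and 123, 117 and 264 counts with SAHA in AGS, or 19.5, 38.0 and 13.1 CPM against 49.4, 37.6 and 85.9 CPM. The groups overlapped, since AGS SAHA 2 lay just below AGS DMSO 2. The means were 23.5 ± 12.9 and 57.6 ± 25.2 CPM (SD, n = 3), a log2 fold change of 1.29 (SE 0.47) with an edgeR adjusted p of 0.0806. Without AGS DMSO 2 the difference passed (adjusted p = 0.0347).

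AGS DMSO 2 was the DMSO library of AGS with the highest levels of miR-509-3-5p and miR-514a-3p. It also had the highest sum of the epithelial list, 8068 CPM where the other DMSO libraries had 2923 and 3369 CPM, and of the fibroblast and smooth muscle list, 3536 CPM against 580.2 and 1089 CPM. Their part in the result was not tested. Ranked by log2 fold change among the 608 microRNAs tested in AGS, miR-508-3p was at place 41, miR-509-3-5p at 71 and miR-514a-3p at 89, as the plot of fold change against adjusted p shows.

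**Figure D2:**
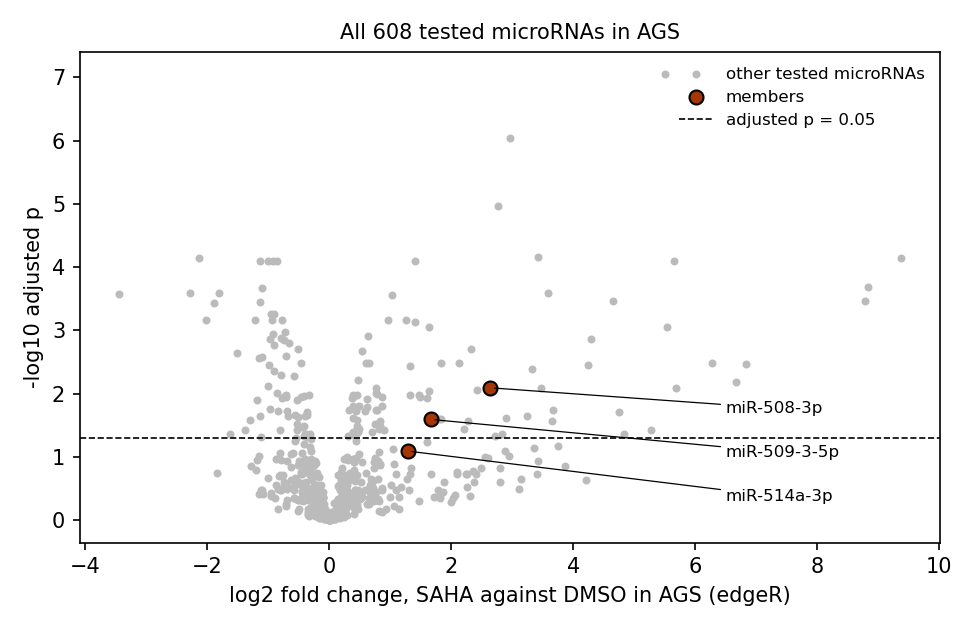
Log2 fold change of SAHA against DMSO in AGS (x axis) and -log10 of edgeR's adjusted p (y axis) for the 608 microRNAs tested (points), with the 3 microRNAs of the cluster in red and a dashed line at an adjusted p of 0.05. miR-508-3p and miR-509-3-5p lie above the line, miR-514a-3p lies just below it, and many other microRNAs had a larger fold change.

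In HGC-27 no DMSO library listed a count for any of the 3 microRNAs, and SAHA libraries listed few. SAHA raised miR-514a-3p and miR-509-3-5p, while miR-508-3p was not called. Thus 2 of 3 were called, where 21.7% of the 608 microRNAs tested were called higher. In listed counts, the groups did not overlap for the same 2 microRNAs, where 30.4% of those tested were higher with no overlap.

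miR-514a-3p had 17, 6 and 15 counts in the HGC-27 SAHA libraries, or 5.31, 2.15 and 3.40 CPM, and 0 in each DMSO library. All 3 SAHA libraries lay above the DMSO libraries, and the mean of 3.62 ± 1.59 CPM (SD, n = 3) was at least 5.25-fold higher than a floor of 3 counts per DMSO library (edgeR adjusted p = 0.000966).

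miR-509-3-5p had 7, 2 and 13 counts with SAHA, or 2.19, 0.717 and 2.94 CPM, and 0 with DMSO. The 3 SAHA libraries were again above the DMSO libraries in listed counts, with HGC-27 SAHA 2 under its own floor of 1.08 CPM. That library was also under the floors of HGC-27 DMSO 1 and DMSO 2 (0.736 and 0.753 CPM), so it is not separated from them beyond counting error. The mean of 1.95 ± 1.13 CPM (SD, n = 3) was at least 2.83-fold higher than a floor of 3 counts per DMSO library (edgeR adjusted p = 0.00168).

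miR-508-3p had 2 counts in HGC-27 SAHA 3 and 0 in the other 5 libraries of the line. Both groups were at or under the floor, so no fold is given, and a difference was not detectable at this depth (edgeR adjusted p = 0.134).

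HGC-27 SAHA 2 was the lowest of its group for miR-509-3-5p and miR-514a-3p, and stood highest for the neuronal list, which came to 8589 CPM there against 2450 and 2462 CPM in its replicates. It was also highest for the blood (446.2 against 55.0 and 96.5 CPM), fibroblast and smooth muscle (2271 against 714.7 and 1011 CPM), muscle and liver, and melanocyte lists. For the epithelial list it lay between its replicates, and for the germ and embryonic stem cell list it was lowest. All 6 neuronal markers were called higher with SAHA in HGC-27. Without that library both microRNAs were still called (adjusted p = 0.00196 and 0.00221). HGC-27 DMSO 1 stood out for the fibroblast and smooth muscle list, with 1190 CPM where the other DMSO libraries had 164.4 and 173.2 CPM, and for the muscle and liver list, with 1128 CPM against 25.1 and 38.2 CPM, but had no count for the 3 microRNAs. Without HGC-27 SAHA 2, HGC-27 DMSO 1 and AGS DMSO 2, the edgeR adjusted p in HGC-27 was 0.0026 for miR-509-3-5p and 0.00294 for miR-514a-3p. In AGS it was then 0.0152 for miR-508-3p, 0.00208 for miR-509-3-5p and 0.0113 for miR-514a-3p.

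AGS held more of each of the 3 microRNAs than HGC-27, with or without SAHA. Under DMSO, all 3 were called higher in AGS than in HGC-27, where 24.5% of the 608 microRNAs tested were called higher. Against a floor of 3 counts per HGC-27 library, miR-514a-3p was at least 34.1-fold higher in AGS and miR-509-3-5p at least 24.6-fold higher (edgeR adjusted p = 3.99e-05 for each), and miR-508-3p at least 2.74-fold higher (adjusted p = 0.00132). The groups did not overlap for any of the 3, where 28.8% of those tested were higher in AGS with no overlap.

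Under SAHA all 3 were again called higher in AGS, where 22.9% of those tested were called higher. miR-509-3-5p was 27.7-fold higher (log2 fold change 4.72, SE 0.53, edgeR adjusted p = 0.000118) and miR-514a-3p 15.9-fold higher (3.97, SE 0.54, adjusted p = 0.000336). For miR-508-3p, 102 counts against 2 gave a ratio of 61.2, with an exact 95% interval of 16.5 to 512 (adjusted p = 0.000188). The groups did not overlap for any of the 3, against 29.9% of those tested. Both line contrasts were called in each fit that left out 1 library. The AGS DMSO libraries, never treated with SAHA, lay above every HGC-27 SAHA library for each of the 3 microRNAs, a step that was not tested.

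Whether SAHA acted by a different factor in AGS and HGC-27 was tested directly as the difference of the log2 responses. None of the 3 microRNAs was called (edgeR adjusted p = 0.717 for miR-508-3p, 0.103 for miR-509-3-5p and 0.0664 for miR-514a-3p), where 1.81% of those tested were called in either direction. At an unadjusted p under 0.05, 2 of the 3 passed, as did 17.9% of those tested. DESeq2 called 1, miR-514a-3p (adjusted p = 0.00666), and 7.92% of the microRNAs to which it gave an adjusted p. The call appeared without AGS SAHA 3 (0.0336) or AGS DMSO 3 (0.0387). The fitted sign and size of this difference cannot be read by themselves, because the fitted response in HGC-27 starts from a group with no counts. Its p-values rest on that same group. Against the floor of 3 counts, miR-514a-3p rose at least 5.25-fold in HGC-27, where its means in AGS differed 2.45-fold. For miR-509-3-5p the values were at least 2.83-fold and 3.19-fold, which do not order the lines. For miR-508-3p no fold is given in HGC-27. The floor covers counting error only.

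The 3 microRNAs ranked from just above the middle of the tested microRNAs to near the bottom, according to the group. In AGS with SAHA, where they were highest, miR-514a-3p was at place 257 of the 608 tested by mean CPM, miR-509-3-5p at 263 and miR-508-3p at 401. In AGS with DMSO the places were 315, 348 and 545, and in HGC-27 with SAHA 515, 563 and 604. miR-514a-3p, the highest of the 3, made up 0.00631% of the annotated counts of AGS with SAHA. The 3 are 21 to 23 bases long, and no correction for length was made. Whether the libraries captured different microRNAs equally well was not tested, so ranks, shares and levels of different microRNAs compare listed counts only.

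Within the cluster, the 3 microRNAs held nearly all the counts. Of the 13 arms in the table, 9 had a count in any library, and 4 were blank throughout: miR-513a-3p, miR-514a-5p, miR-514b-3p and miR-514b-5p. Arms of miR-507, miR-510, miR-513b and miR-513c were among the 20 names sought but had no entry in the table under those names. Shares of the cluster are therefore shares of the 13 arms. The counts of all arms together came to 312, 284 and 576 in the AGS SAHA libraries, 143, 207 and 65 with DMSO, and 26, 8 and 32 in HGC-27 with SAHA. The 3 microRNAs together held 91.6 ± 0.342% of them in AGS with SAHA and 90.2 ± 3.92% with DMSO (SD, n = 3).

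The makeup of the cluster was compared between the AGS groups. miR-514a-3p held 49.0 ± 6.0% with DMSO and 42.2 ± 3.31% with SAHA (exact two-sided permutation test, p = 0.2, SD, n = 3). miR-509-3-5p held 36.4 ± 1.22% and 40.4 ± 1.52%, and these groups did not overlap (exact permutation p = 0.1, the smallest that 3 against 3 allows, adjusted p = 0.24 over 12 comparisons). miR-508-3p held 4.77 ± 2.69% and 9.08 ± 1.45%, with overlap (exact permutation p = 0.2). The design cannot reach 0.05 for such shares.

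Only 1 arm of each of these hairpins was well represented. miR-508-3p had 120 counts over the 12 libraries and its partner miR-508-5p 3, all of them in AGS DMSO 3. miR-514a-3p had 754 counts and miR-514a-5p none. miR-509-3-5p had 642 counts, and miR-509-3p, the arm on the other side of all 3 mir-509 hairpins, had 5. The arm on the 5′ side was thus the abundant one for mir-509-3, and the arm on the 3′ side for mir-508 and mir-514a. The map of hairpins in their order along the chromosome shows the levels for both arms together.

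**Figure D3:**
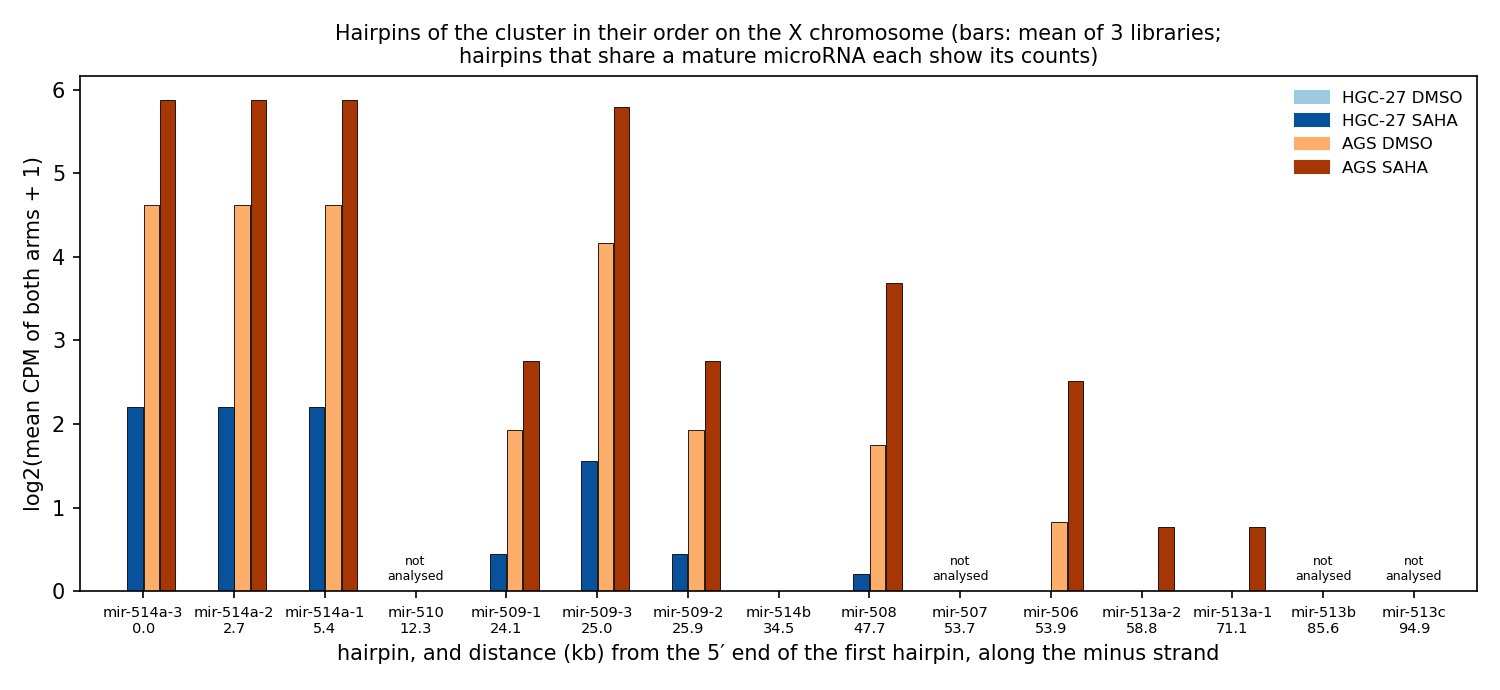
Level of each hairpin of the cluster as log2(mean CPM of both arms + 1) (bars, mean of 3 libraries), in order along the minus strand of chromosome X with the distance in kb from the first hairpin. Hairpins that share a mature microRNA each show all its counts, so the bars of the mir-514a copies repeat the same reads. The mir-514a copies and mir-509-3 have the tallest bars, HGC-27 DMSO has none, and mir-514b was listed with no counts. Hairpins marked as not analysed had no entry in the table under the names sought.

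miR-509-5p, with the seed of miR-509-3-5p, was the only other arm of the cluster that entered the test. It stood at 3.34, 3.66 and 1.40 CPM in AGS with DMSO and at 4.01, 3.86 and 7.81 CPM with SAHA. The SAHA libraries were all above the DMSO libraries, but the difference was not called (log2 fold change 0.86, SE 0.59, edgeR adjusted p = 0.334). It was at least 4.07-fold higher in AGS than in HGC-27 under DMSO (adjusted p = 0.00114). Of the counts of both microRNAs, miR-509-3-5p held 85.7 ± 4.41% in AGS with DMSO and 91.3 ± 1.40% with SAHA (exact permutation p = 0.1, the smallest possible, SD, n = 3).

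miR-506-3p, from the hairpin that gives the cluster its name, had too few counts for the test. It was at 1.39, 0 and 0.936 CPM in AGS with DMSO and at 5.22, 2.57 and 4.88 CPM with SAHA, and listed no counts in HGC-27. The AGS groups did not overlap, and 36 counts against 7 gave a ratio of 5.18 with an exact 95% interval of 2.27 to 13.8. With no filter on low counts, edgeR's adjusted p was 0.239. The other arms, miR-506-5p, miR-508-5p, miR-509-3p and miR-513a-5p, had 3 to 6 counts each over all libraries.

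Other microRNA hairpins lie on the same chromosome arm: those of miR-888 to miR-892, known for high levels in the epididymis, and those of miR-105 and miR-767. Of the 10 arms of the miR-888 to miR-892 list in the table, 8 had counts and 3 were tested (miR-888-5p, miR-891a-5p and miR-892a). These 3 passed the filter on their SAHA libraries alone and held 0 to 3 counts per line with DMSO. They were called higher with SAHA in both lines, which the filter largely set, and with DMSO they had too few counts to compare the lines. The summed level of the miR-888 to miR-892 list was 0 to 0.386 CPM in HGC-27 and 0 to 1.67 CPM in AGS with DMSO. The miR-506 to miR-514 list stood at 0 in HGC-27 and at 30.4 to 68.9 CPM in AGS.

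With SAHA, the summed level of the miR-506 to miR-514 list was 2.87 to 8.12 CPM in HGC-27 and 91.3 to 187.5 CPM in AGS. That of the miR-888 to miR-892 list was 20.1 to 29.7 CPM in HGC-27 and 48.2 to 60.9 CPM in AGS. In HGC-27 with SAHA, miR-891a-5p stood at 10.7 ± 1.97, miR-892a at 6.69 ± 2.41 and miR-888-5p at 4.76 ± 0.396 CPM, all with a higher mean than the 3.62 CPM of miR-514a-3p. In AGS with SAHA, where miR-891a-5p stood at 24.2 ± 3.60, miR-892a at 17.1 ± 2.13 and miR-888-5p at 6.88 ± 0.486 CPM (SD, n = 3), both miR-514a-3p and miR-509-3-5p had higher means. miR-892b and miR-891b reached 2.80 and 1.26 CPM in their highest groups. No test compared the lists with each other.

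The list of miR-105 and miR-767 was expressed in every library, at 459.3 to 526.4 CPM with DMSO in both lines together. miR-105-5p and miR-767-5p rose with SAHA in both lines, by 0.58 and 0.36 on the log2 scale in HGC-27 and by 0.38 and 0.30 in AGS (edgeR adjusted p = 0.000995, 0.0149, 0.0158 and 0.0472). Their other arms, miR-105-3p (10.6 to 14.4 CPM in the group means) and miR-767-3p (12.9 to 21.8 CPM), were not called in either line. Between the lines under DMSO, the edgeR adjusted p was 0.687 for miR-105-5p and 0.983 for miR-767-5p.

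**Figure D4:**
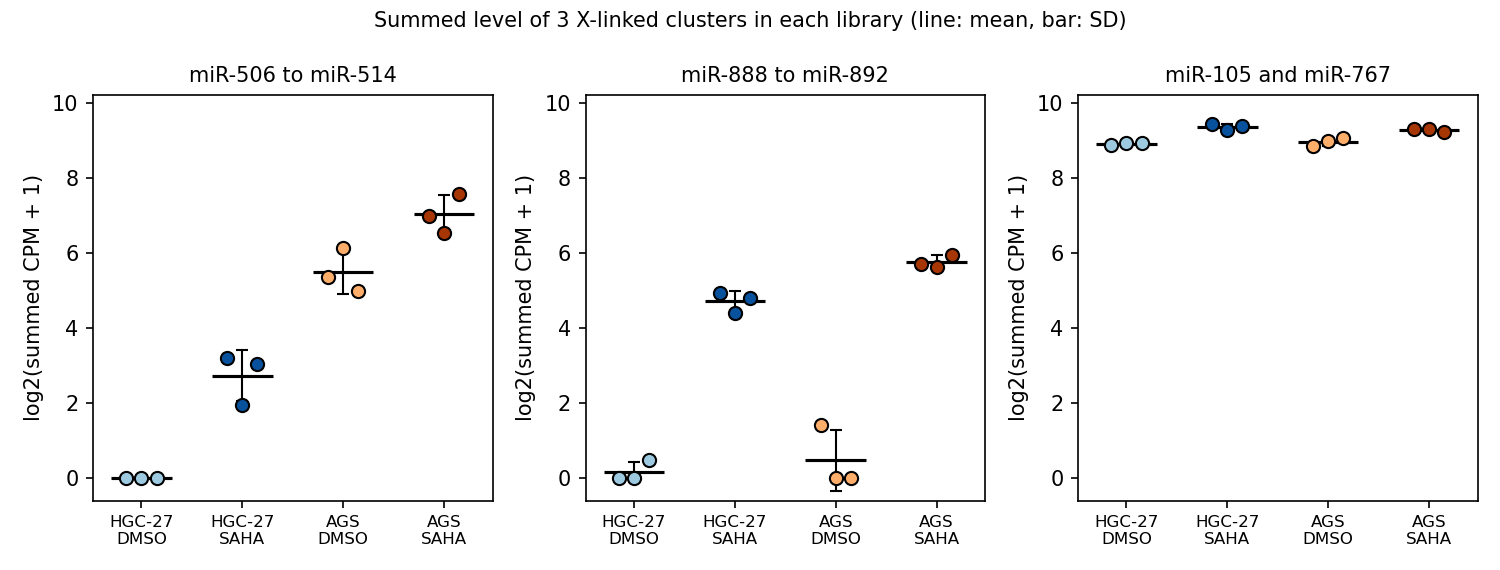
Summed level of 3 X-linked groups of microRNAs as log2(summed CPM + 1) in each library (points), with the mean (line) and SD (bar) of the 3 libraries of a group. With DMSO, the miR-506 to miR-514 sum is 0 in HGC-27 and 30.4 to 68.9 CPM in AGS, while the lines overlap in the other panels.

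Over the 12 libraries, the closest pair was miR-514a-3p with miR-509-3-5p, with a Pearson r of 0.988 for log2(CPM + 1). miR-508-3p had an r of 0.933 with miR-509-3-5p and 0.883 with miR-514a-3p. These points share the 4 groups and the libraries' depth, so r describes mainly the order of the groups. Of all tested microRNAs, the 5 most like miR-509-3-5p were miR-514a-3p, miR-2277-5p (r 0.986), miR-4636 (0.980), miR-509-5p (0.978) and miR-1299 (0.975). For miR-514a-3p they were miR-509-3-5p, miR-2277-5p (0.973), miR-216b-5p (0.973), miR-509-5p (0.968) and miR-1299 (0.965). For miR-508-3p they were miR-516a-5p (0.982), miR-502-3p (0.950), miR-217 (0.940), miR-509-3-5p (0.933) and miR-7151-5p (0.933).

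Since the cluster is known from germ cells and melanoma, marker lists of germ and embryonic stem cells and of melanocytes were read beside it. Of the 8 germ and stem cell microRNAs in the table, 5 were blank in all 12 libraries: miR-302a-3p, miR-302b-3p, miR-302c-3p, miR-367-3p and miR-371a-3p. The list summed to 0 CPM in HGC-27 with DMSO, 4.66 to 5.62 CPM with SAHA, 0 to 0.936 CPM in AGS with DMSO and 2.57 to 6.18 CPM with SAHA. Its leading microRNA, miR-372-3p, was called higher with SAHA in both lines, and in AGS against HGC-27 under DMSO on 4 counts against 0 (edgeR adjusted p = 0.0422). miR-372-3p passed the filter on low counts on SAHA libraries alone, so its calls with SAHA were largely set by the filter. The melanocyte list, miR-204-5p and miR-211-5p, summed to 0.386 to 1.47, 1.87 to 31.2, 1.39 to 4.00 and 4.56 to 16.1 CPM in the same order of groups. The blood list summed to 40.3 to 247.5, 55.0 to 446.2, 187.6 to 375.8 and 118.3 to 228.8 CPM. Other markers moved with SAHA as well. In the epithelial list, miR-192-5p and miR-194-5p were called higher with SAHA in HGC-27 and higher in AGS than in HGC-27 under DMSO, and the other 7 were called in neither comparison. In the fibroblast and smooth muscle list, miR-199a-3p and miR-199b-5p were called higher with SAHA in both lines, and miR-199b-5p was lower in AGS than in HGC-27. Of the melanocyte list, miR-204-5p was called higher with SAHA in HGC-27, with overlapping groups. The part of these lists in the levels of the cluster was not tested.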

How the data were processed

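Small RNA was sequenced from total RNA of the 12 cell line libraries with an NEBNext kit, per the labels' protocols. cutadapt and Novoalign 2.07.11 are named in the submitters' processing notes. For the counting rule, the genome build and the microRNA database release, nothing is given in the sources used here. The deposited counts are whole numbers per mature microRNA and hairpin, with 2909 entries, of which 860 were predicted and left out. A second deposited table holds a score, the authors' normalized values rounded to whole numbers, used only for an alternative.

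Counts were fitted with edgeR 4.0.16 in R 4.3.3 (TMM, filterByExpr, quasi-likelihood test, 1 coefficient per group, 8 residual degrees of freedom), and p-values were adjusted by Benjamini-Hochberg over the 608 microRNAs tested. The SE is approximate: the absolute log2 fold change divided by the square root of the test's F statistic. Ratios of counts have exact 95% intervals. The alternatives used limma 3.58.1 and DESeq2 1.42.0, among others. The tests were checked on simulated data, but no error rate from that check is given here. Sequences and positions are from RefSeq (GRCh38.p14), gene overlaps from GENCODE 29. Named microRNAs were the 3 of the cluster, arms of the 3 X-linked lists reaching 1 CPM, the 5 most alike and those sharing a seed. Any other name was picked after seeing its values. The members and lists were chosen with earlier results of these data known.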

Additional observations from a re-analysis of the deposited data

How the results depend on the processing

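The calls of miR-509-3-5p and miR-514a-3p in HGC-27 and of all 3 microRNAs between the lines held without each library, without the filter, under other scalings, with DESeq2 and with blanks read as 1 count; limma on the authors' normalized values with a pseudocount of 5 lost the HGC-27 calls (adjusted p = 0.163 and 0.151). In AGS, miR-514a-3p was called with plain library totals (0.0396), with blanks read as 1 count (0.0478), with limma at pseudocounts of 1 and 5 (0.0151 and 0.00839) and without the 3 libraries that stood apart (0.0113, an alternative chosen after seeing the data). Same-numbered libraries did not correlate throughout, so the main fit had no pairing. They correlated by -0.31 to 0.0749 in HGC-27 and -0.123 to 0.0235 in AGS. Across the lines the values were -0.0955 to 0.248 with DMSO and -0.0766 to 0.507 with SAHA, highest for AGS SAHA 2 with HGC-27 SAHA 2. Whether libraries with the same number were handled together was not tested. With a replicate block, the adjusted p of miR-509-3-5p in AGS was 0.0513 and 6 differences of response were called in place of 11.

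The difference of responses changed with several settings. For miR-514a-3p it was called with plain totals (0.0491), no filter (0.0228), DESeq2 (0.00666), counts summed over hairpins (0.0198) and predicted entries added (0.0385), and changed sign with limma at a pseudocount of 5 (0.418). miR-508-3p changed sign, uncalled, with RLE scaling (0.694), summed hairpins (0.675), predicted entries (0.656) and without the 3 libraries (0.81), and was called with limma (0.0142 and 0.00342). miR-509-3-5p changed sign with limma (0.787 and 0.0902). The number called was 37 with DESeq2, 29 with blanks as 1 count, 44 with predicted entries and 27 and 33 with limma; with predicted entries 432 differed between the lines under DMSO. The cause was not tested.

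Leaving out 1 library gave adjusted p-values in AGS of 0.0178 to 0.0604 (miR-508-3p), 0.0217 to 0.109 (miR-509-3-5p) and 0.0347 to 0.251 (miR-514a-3p), and in HGC-27 of 0.0978 to 0.254, 0.00196 to 0.00803 and 0.00221 to 0.00419. For the difference of responses they were 0.652 to 0.863, 0.069 to 0.3 and 0.0336 to 0.147. Between the lines they were 0.00415 to 0.00668, 0.000102 to 0.000275 and 7.03e-05 to 0.000245 under DMSO, and 0.000459 to 0.00165, 0.000169 to 0.00116 and 0.000641 to 0.00314 under SAHA. Counts of calls were 163 to 210 in HGC-27, 97 to 144 in AGS, 2 to 20 for the difference, 228 to 277 under DMSO and 230 to 253 under SAHA. Without HGC-27 SAHA 3, and on the normalized values, miR-508-3p was at 0 in both HGC-27 groups and gave no value.

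With blanks as 1 count, each microRNA stood at 0.241 CPM in HGC-27 with DMSO; summed over its hairpins, miR-514a-3p stood at 9.95, 61.5 and 145 CPM in HGC-27 with SAHA, AGS with DMSO and AGS with SAHA, because each read was listed at all 3. Plain totals moved the median log2 change of all tested microRNAs by 0.12 in HGC-27 and 0.19 in AGS, and the share of calls that were higher from 53.2% to 64.6% and from 56.5% to 75.8%; the 3 microRNAs stayed higher with SAHA. Depth limits the HGC-27 values, which rest on 2 to 17 counts per library where any were listed.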
